A study of Mus musculus with 8 samples.

Results

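The genes described here carry symbols made of Zfp and a number only, the mouse naming series for zinc finger proteins, and have at least 1 m6A peak in any of 4 deposited peak lists. There were 238 of them among 8733 genes with a peak. They have 237 symbols, since Zfp935 stands for 2 Ensembl identifiers, and 232 were annotated as protein coding and 6 as pseudogenes. They held 1338 of the 35697 peaks. The rule that picked them used nothing measured except the presence of a peak in some list. The rule itself was chosen with earlier results of these data known. Of the protein-coding genes of RefSeq 367 have such a symbol, and 233 of these had a peak (63.5%, Wilson 95% interval 58.4% to 68.3%). Of the 21533 other protein-coding symbols 6706 had one (31.1%, 30.5% to 31.8%). Neither share takes into account how much RNA a gene had, and a gene counted only where its symbol was the same in both sources.

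The series measured m6A, short for N6-methyladenosine, a modified adenosine inside RNA chains, by sequencing RNA pieces that an antibody to the mark had captured, beside pieces without capture, called input. The samples were spermatogenic cells from testes of C57BL/6 mice aged 12 weeks that were wild type (WT) or Alkbh5-/- (KO); ALKBH5 is an enzyme that removes the mark from RNA. The samples are labelled PA and RO, which the title of the series spells out as pachytene spermatocytes, cells in meiotic prophase, and round spermatids, cells after meiosis. Each of WT PA, KO PA, WT RO and KO RO had 1 input and 1 immunoprecipitated sample, 8 in all, so nothing here has a replicate check and no test was run. Values given in fours follow this order of the groups. The labels do not say how the cells were separated, how many mice were pooled or how Alkbh5 was deleted. All 4 groups come from adult testes, and the WT mice are the only controls.

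Zinc finger proteins of the C2H2 kind fold short loops around a zinc ion, and strings of such fingers read DNA sequence. Many of them join the fingers to a KRAB domain, which recruits the corepressor TRIM28 and through it the histone methyltransferase SETDB1, and these proteins silence transposable elements and protect imprinted sites. Their genes lie in clusters, have multiplied fast in evolution, and often code the whole finger array in 1 long last exon. In most mRNAs m6A gathers in long internal exons and around the stop codon. The symbol says nothing about which domains a protein has, and domains were not counted here.

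Input totals ran from 9921365 to 13147239 counts per library. The 238 genes took between 0.929% (WT PA) and 1.07% (KO PA) of them. The genotype labels were not checked on the counts of Alkbh5, which has no symbol in the files. Counts carried Ensembl identifiers and symbols came from the peak lists, so only genes with a peak in some list could be named. Of 12 markers of pachytene spermatocytes 4 could be named, and their summed input level, in CPM (counts after scaling every library to the same size), was 2598, 1788, 2548 and 2172 in WT PA, KO PA, WT RO and KO RO. Of 12 spermatid markers 6 could be named, with 234, 536, 460 and 979 CPM in the same order. In sum, the RO libraries thus held pachytene marker RNA at the level of the PA libraries, and the spermatid sum of KO PA exceeded that of WT RO. The largest part of the pachytene sum was Sycp2, with 1777 CPM in WT PA. Within each genotype all 6 spermatid markers were higher in RO than in PA. Acrv1 (51.3 CPM in KO PA, 136 in WT RO) and Prm3 (34.2 and 70.0) went against the order of the KO PA and WT RO sums. Tnp2, Prm2, Odf1 and Akap4 went with it. Sums of 4 Sertoli cell markers lay between 172 and 318 CPM, and those of 2 Leydig cell markers between 16.7 (KO RO) and 136 (WT PA). Sums of 3 spermatogonium markers were 30.5, 60.4, 23.5 and 42.4 CPM in the order of the groups, higher in both KO libraries, and those of 3 peritubular and vessel markers 369, 394, 203 and 337 CPM, lowest in WT RO. None of these markers was at 0 in any library. Their part in the results below was not tested, and fewer cells of a type cannot be told apart from less RNA per cell.

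Of the 235 RefSeq windows around the transcription start that could be matched to 193 members, 2 were touched by a peak of the same gene, at Zfp329 and Zfp85. The windows end 50 bases after the start, and no share for other genes was set beside this count. The Zfp85 stretch is shown because it lies in peaks of 3 of the 4 lists, all classed as 5′ untranslated. The WT PA peak covers chr13:67755079-67755228 on the minus strand of mm10, and the KO PA and KO RO peaks cover chr13:67755019-67755228. Inside them, at chr13:67755156-67755185, RefSeq (GRCm38.p6) gives, 5′ to 3′ in the sense of the gene, with a match to GGACT in capitals:
Zfp85: accccgctagacaGGACTctgctctctgtg
GGACT is a common form of the sequence in which m6A is found. The match begins at base 31 counted from the start of the gene. In the 50 bases after the start, GGACT stood in the sense of the gene in 5.76% of all 32851 windows and in 4.05% of the 370 windows with such a Zfp symbol, and on the opposite strand in 4.87% and 7.03%. The 42 bases of the Zfp329 window under a peak held no GGACT on either strand. These matches describe letters and do not show which base is methylated.

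The peak lists were compared first. Zfp genes had 300, 345, 372 and 321 peaks in WT PA, KO PA, WT RO and KO RO, spread over 162, 181, 184 and 169 genes. Peaks per gene came to 1.85, 1.91, 2.02 and 1.90, against 1.58, 1.62, 1.61 and 1.58 for all other genes with a peak in the same list. The higher mean went with fewer genes of a lone peak: these made up 53.1%, 51.9%, 46.2% and 53.8% of the Zfp genes and 67.4%, 65.4%, 66.1% and 67.9% of the others.

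Summed over the 4 lists, a Zfp gene had a median of 4 peaks. At the low end, 44 genes had 1 peak in all, and the median of their highest input level was 9.86 CPM. At the high end, 20 genes with over 12 peaks held 363 of the 1338, with a median highest level of 120 CPM. Their median gene length was 50.04 kb, against 21.4 kb for the genes of 1 peak. Between these ends the median length did not rise steadily. It was 17.3, 15.5 and 21.8 kb for 2 to 4, 5 to 8 and 9 to 12 peaks. Zfp292 (ENSMUSG00000039967) had the most, with 12 peaks in each WT list and 10 in each KO list. Of these 44 peaks 43 were coding, and every one lay as a single block between chr4:34804702 and chr4:34811869 on the minus strand, 1.68 to 8.43 kb from the end of the gene. Within the KO RO list its peak of highest fold was at chr4:34811059-34811809, with a fold of 111 in the authors' deposited table. Fold there is the ratio of immunoprecipitated to input signal and ranks peaks within a list only.

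Next came Zfp407 with 31 peaks, Zfp318 with 28, Zfp609 with 20, Zfp638 with 19 and Zfp646 with 18. Zfp318, known from B cells for its part in producing IgD, had 6, 5, 9 and 8 peaks in WT PA, KO PA, WT RO and KO RO. Zfp638, whose human counterpart takes part in silencing unintegrated retroviral DNA, had 5, 4, 5 and 5. Zfp609, a partner of the cohesin loader NIPBL and the Integrator complex, had 6, 6, 4 and 4. Zfp646 showed the dense kind of pattern in a short gene of 9.08 kb: its 18 peaks were all coding and lay between chr7:127880013 and chr7:127883962.

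The genes of the highest fold differed between lists. In the authors' deposited table these were Zfp609 (180), Zfp532 (126) and Zfp597 (119) for WT PA. KO PA had Zfp451 (217), which codes a SUMO ligase, Zfp62 (161) and Zfp317 (121) at the top. WT RO had Zfp26 (233), Zfp91 (218), which codes a ubiquitin ligase, and Zfp281 (206), a regulator of pluripotent cells. KO RO had Zfp597 (237), Zfp609 (209) and Zfp800 (179). Zfp597 had overlapping coding peaks in every list, at chr16:3865646-3866126 in WT PA, chr16:3865676-3866246 in KO PA, chr16:3865706-3866156 in WT RO and chr16:3865646-3866216 in KO RO. The Zfp451 peak, at chr1:33801860-33802970 in KO PA, was classed as exon outside the coding sequence and had overlapping peaks in the other 3 lists.

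In class, Zfp peaks were mostly coding. In the PA lists the coding share was 68.3% for WT (Wilson 95% interval 62.9% to 73.3%) and 66.7% for KO (61.5% to 71.4%). In the RO lists it was 67.2% for WT (62.3% to 71.8%) and 66.4% for KO (61.0% to 71.3%). For other protein-coding genes it was 63.2%, 61.3%, 56.9% and 59.4%. The 4 Zfp shares lay within 2 points of each other while those of the others spread over more than 6, so the gap was widest in WT RO. The intervals cover counting error only and treat peaks as independent, which peaks of the same gene are not.

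The 3′ untranslated share was lower in Zfp genes, at 16.3%, 19.1%, 18.8% and 20.2% in WT PA, KO PA, WT RO and KO RO, against 23.6%, 24.5%, 28.7% and 27.1% in other protein-coding genes. There were 4, 8, 7 and 6 Zfp peaks in 5′ untranslated sequence, and 1 at a stop codon (Zfp612 in WT PA). Exons outside these classes held 13.7%, 11.9%, 12.1% and 11.5%. In all, 173 of the 238 genes had a coding peak in some list and 65 did not, 6 of them the pseudogenes.

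**Figure D1:**
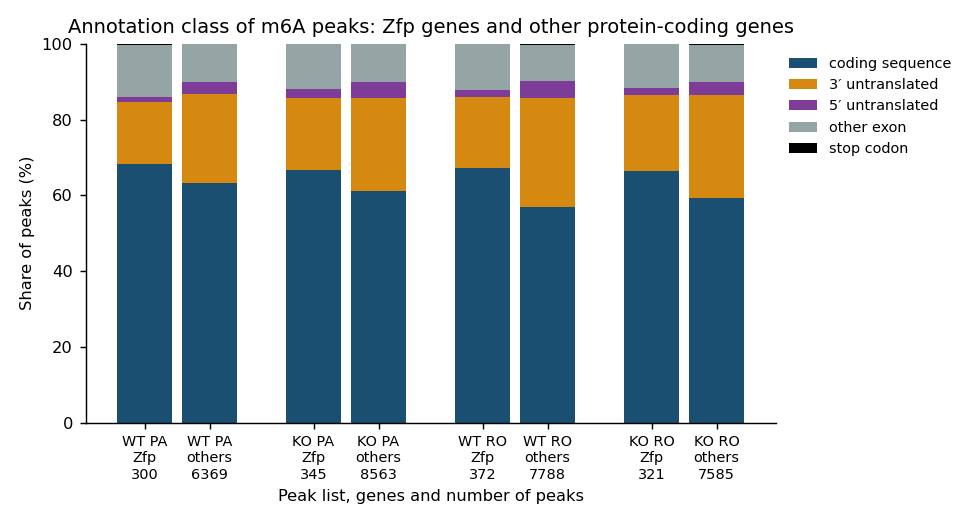
Share of peaks (%) by annotation class in each of the 4 lists, for Zfp genes and for other protein-coding genes, with the number of peaks under each bar. The coding share of Zfp genes stays between 66.4% and 68.3%, while that of the others runs from 56.9% to 63.2%.

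Whether coding peaks lie in the last coding exon could not be read from the files used here, so 2 stand-ins were measured. The first was the number of exon blocks, since a peak with more than 1 block spans a splice junction. Of the Zfp coding peaks 12.7% (WT PA), 17.0% (KO PA), 13.2% (WT RO) and 15.5% (KO RO) had more than 1 block, against 17.4%, 28.6%, 17.0% and 21.4% for other genes. The other genes had their highest share in KO PA, where the share of Zfp genes was also highest. Multi-block peaks remained a minority in every list for both kinds of gene.

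The second was the genomic distance from the middle of a coding peak to the end of its RefSeq gene. The median distance in the 4 lists was 4.87, 4.82, 4.22 and 5.03 kb for Zfp genes, against 9.87, 9.86, 9.66 and 9.46 kb for other genes. Within 5 kb of the end lay 52.7% (45.9% to 59.4%) of the Zfp coding peaks for WT and 52.6% (46.2% to 59.0%) for KO in PA, and 56.4% (50.2% to 62.4%) for WT and 49.3% (42.7% to 56.0%) for KO in RO. The shares for other genes were 35.8%, 36.4%, 38.0% and 37.5%. The limit mattered: within 2 kb the Zfp shares of 15.6%, 13.04%, 16.0% and 10.8% were below those of the others (17.7%, 18.1%, 18.8% and 18.2%), and within 10 kb they were above them (73.2%, 72.2%, 74.8% and 69.0% against 50.2%, 50.2%, 50.6% and 51.0%). Zfp genes with a coding peak were also shorter, with median lengths of 19.9 to 20.5 kb in the 4 lists against 33.9 to 37.2 kb. Measured along the gene, the median coding peak lay at 80.4%, 77.0%, 80.9% and 78.3% of its length for Zfp genes and at 68.6%, 69.0%, 67.2% and 69.5% for others. Introns are counted in these distances.

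**Figure D2:**
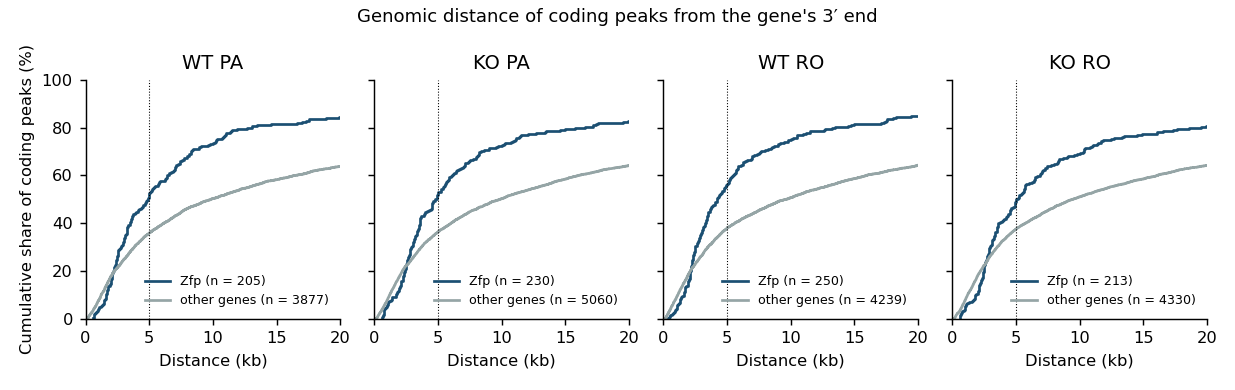
Cumulative share of coding peaks (%) against genomic distance from the end of the gene (kb), 1 panel per list, Zfp genes in blue and other genes in grey; the dotted line marks 5 kb. The blue curve starts at or below the grey one and passes it between 2 and 5 kb, reaching 49.3% to 56.4% at the line.

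Between genotypes, the PA lists gave a KO to WT ratio of Zfp peak numbers of 1.15 (exact 95% interval 0.982 to 1.35) and the RO lists a ratio of 0.863 (0.741 to 1.005), so that both intervals reached 1. Limited to a false discovery rate under 0.05, the PA interval no longer did (1.20, 1.02 to 1.41), and the RO ratio was 0.960 (0.818 to 1.13). For all other genes the ratios were 1.33 (1.29 to 1.37) and 0.942 (0.915 to 0.971). In exonic bases covered by Zfp peaks the ratio was 1.39 in PA and 0.897 in RO, and the mean peak of KO PA was 343 bases against 285 in WT PA. For other genes the covered ratio was 1.52 in PA and 1.02 in RO. Their mean peak was 332 bases in KO PA against 290 in WT PA. Each list rests on 1 pair of libraries, so a difference between lists holds for those libraries.

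Shared peaks were counted next, by an overlap of at least 1 exonic base on the same strand. In PA, 240 of the 300 WT Zfp peaks were found again in KO (75.1% to 84.1%), and 64.3% of the KO Zfp peaks in WT. Other genes gave 79.7% and 56.3%. In RO, 57.3% of the WT Zfp peaks were found again in KO (52.2% to 62.2%) and 65.7% of the KO ones in WT, against 55.8% and 58.6% for other genes. Between the stages of WT, 70.3% of the PA peaks were found in RO and 55.4% of the RO peaks in PA (63.8% and 50.4% for other genes). Between those of KO the shares were 73.0% and 81.0% (69.9% and 81.1% for other genes). WT RO was the list whose Zfp peaks were shared least, in both pairs it entered. Of its 372 Zfp peaks, 50 (13.4%) missed a false discovery rate of 0.05 in the authors' deposited table, against 21 of the 300 for WT PA, 10 (2.90%) for KO PA and 12 (3.74%) for KO RO.

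By gene, 115 of the 238 had a peak in all 4 lists (48.3%, 42.0% to 54.6%), against 34.04% of the other 8495 genes. The share was not particular to Zfp genes: in 6 other families named for finger domains, of 6 to 46 genes each, it ran from 50% to 77.1%. Another 37 were in 3 lists, 39 in 2 and 47 in 1 (19.7%, against 31.7% of the others). Of these 47, 25 had peaks in WT RO alone, 9 in KO PA alone, 7 in KO RO alone and 6 in WT PA alone. Among those in all 4 lists, the 5 with the highest summed input level were Zfp318, Zfp638, Zfp451, Zfp654 and Zfp445, a factor that guards imprinted sites. Zfp445 had 4, 3, 5 and 4 peaks. Its coding peak at chr9:122853411-122853951 had the same first and last base in WT RO and KO RO, and WT PA and KO PA each had a peak over the same stretch.

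Because detection of a peak goes with the amount of RNA, the share of genes with a peak was also set out by input level, among genes with a peak in any list. Both sets were thus selected by having a peak. The other genes were not limited to protein-coding ones, which made up 3918 of the 4548 with a peak in WT PA. At 10 to 30 CPM, 73.8% of 80 Zfp genes had a peak in WT PA (63.2% to 82.1%), against 52.1% of the other genes at that level. The shares at this level were 79.8% against 69.8% in KO PA, 76.6% against 63.9% in WT RO and 70.3% against 62.5% in KO RO. At 30 to 100 CPM the Zfp shares ran from 76.6% to 87.8% and those of the others from 61.4% to 81.4%. Under 3 CPM, with 13 to 19 Zfp genes a list, the Zfp share lay below that of the others in WT PA (23.5% against 31.0%) and above it in WT RO (63.2% against 48.6%), with wide intervals. From 10 CPM up the Zfp share was above that of the other genes at the same level in all 4 lists. The Zfp interval nonetheless reached the share of the others at 10 to 30 CPM in KO RO (59.1% to 79.5%), at 30 to 100 CPM in KO PA (77.3% to 93.1%) and, at 100 CPM and more, where 19 to 23 Zfp genes were left, in each list.

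**Figure D3:**
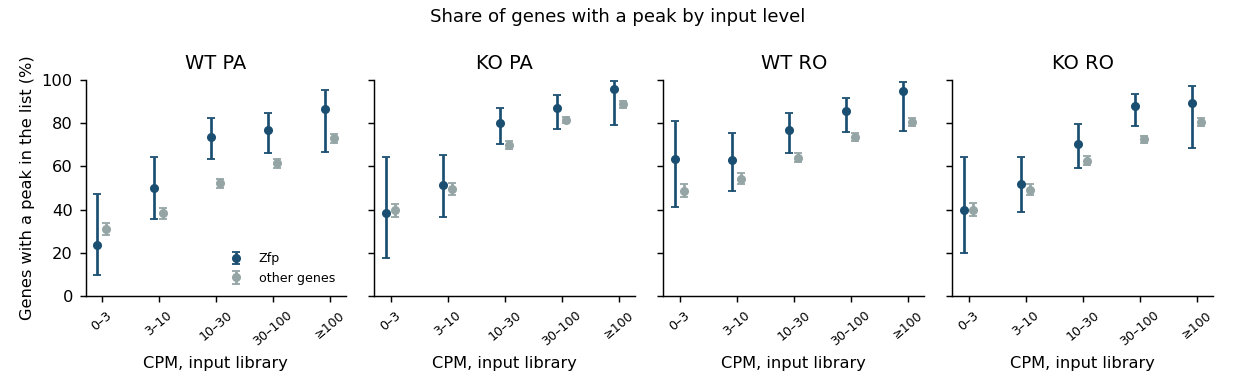
Share of genes with a peak (%) by input level (CPM) in each of the 4 lists, among genes with a peak in any list, for Zfp genes (blue) and other genes (grey); bars are Wilson 95% intervals. At 10 CPM and above each blue point is over the grey one, for example 73.8% against 52.1% in WT PA at 10 to 30 CPM.

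Counts of the 4 input libraries give the level of the transcripts themselves. The median Zfp gene had 24.8, 21.5, 20.4 and 20.2 CPM in the 4 libraries. A log2 ratio below is of CPM scaled by trimmed mean factors with a prior count of 2, for genes with at least 1 CPM in either library. Intervals beside ratios are exact binomial and cover counting error only, which is the smaller part of the spread. For all genes with summed counts of 160 to 320, the robust SD of the genotype log2 ratio in PA was 1.10, against 0.20 from counting, and for the 39 Zfp genes in that range it was 0.60. In RO it was 0.99 for all genes and 0.71 for Zfp genes.

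KO and WT levels differed by 2-fold or more for 52 of 236 Zfp genes in PA (22.0%), 25 of them higher in KO and 27 lower. The same was true of 43.7% of all genes (23.8% higher, 19.9% lower) and 27.0% of the genes with a peak. In RO it was 37 of 236 (15.7%), 19 higher and 18 lower, against 42.1% of all genes (23.0% higher, 19.0% lower) and 27.0% of those with a peak. Both Zfp shares were below both backgrounds, and all genes include many of low count. The median log2 ratio of the Zfp genes was -0.05 in PA and -0.07 in RO, against 0.04 in both for all genes. Scaling by total counts alone moved the median of all genes to 0.35 in PA and 0.22 in RO; the Zfp medians moved with it to 0.24 and 0.11, and the split became 41 higher and 14 lower in PA and 27 and 13 in RO. The direction of the list against 0 is therefore set by the scaling. Against all genes its median was lower under either scaling, but not at every filter: at 10 CPM the PA medians were -0.01 for Zfp genes and -0.04 for all genes. In PA it was also no lower than that of the genes with a peak (-0.05).

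RO and PA levels differed by 2-fold for 48 of 235 Zfp genes in WT (20.4%), 18 higher in RO and 30 lower, against 40.2% of all genes (21.6% higher, 18.7% lower) and 23.2% of those with a peak. In KO it was 30 of 236 (12.7%), 7 higher and 23 lower, against 32.7% of all genes (17.5% higher, 15.2% lower) and 14.0% of those with a peak. In both genotypes more Zfp genes were 2-fold lower in RO than higher, while of all genes more were higher. At 10 CPM the order for all genes turned in KO, with 650 higher and 703 lower, beside 2 and 12 Zfp genes. The median log2 ratio of RO over PA was -0.07 in WT and -0.14 in KO, against 0.01 in both for all genes. Total counts alone raised the WT ratios. For the Zfp genes at chr7:29768552-30169775 the WT median went from -0.23 to -0.14, and the KO median from -0.19 to -0.21. The WT median of all Zfp genes is smaller in size than this WT shift, so its side of 0 depends on the scaling. These comparisons share libraries with the genotype ratios.

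A stricter view asks for genes whose KO libraries both differ by at least 2-fold from both WT libraries, among the 201 Zfp genes with 10 CPM or more in some library. For 2 genes both KO libraries were higher, Zfp366 and Zfp398, against 3.41% of all 13677 genes. For 4 genes both were lower, Zfp383, Zfp541, Zfp868 and Zfp956, against 4.19% of all genes. The shares of the Zfp genes, 0.995% and 1.99%, were below these backgrounds. Scaling by total counts alone gave 5 higher genes (Zfp157, Zfp719 and Zfp819 in addition) and 2 lower ones, Zfp383 and Zfp956. With any gap in place of 2-fold, 39 genes were higher (19.4% against 23.8%) and 57 lower (28.4% against 27.4%).

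Zfp541 (ENSMUSG00000078796), a germ cell factor needed to complete meiotic prophase, had 1319, 422, 2004 and 554 counts in WT PA, KO PA, WT RO and KO RO. Both KO libraries were low and the genotypes did not overlap, with log2 ratios of -1.52 (-1.69 to -1.37) in PA and -1.78 (-1.92 to -1.65) in RO. It had 3, 3, 4 and 1 coding peaks. The coding peak with the highest fold lay in the same stretch of chromosome 7 in WT PA (chr7:16079177-16079446, fold 33.7 in the authors' deposited table), KO PA (chr7:16078878-16079446, 27.1) and KO RO (chr7:16078878-16081716 over 2 blocks, 42.5). In WT RO 2 separate peaks covered most of that stretch, at chr7:16078758-16078967 (39.0) and chr7:16079027-16079416 (34.4). The transcript was thus lower in KO while the peak over this stretch was present in every list.

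Zfp956 had 920, 326, 981 and 348 counts in WT PA, KO PA, WT RO and KO RO, a log2 ratio of -1.37 (-1.57 to -1.20) in PA and -1.42 (-1.60 to -1.25) in RO. Its peaks were all 3′ untranslated, 1 in KO PA and 3 in WT RO. Zfp383 had 138, 11, 47 and 6 counts, with log2 ratios of -3.32 (-4.57 to -2.65) and -2.55 (-4.41 to -1.67). It had a 3′ untranslated peak in each WT list, at chr7:29915554-29915734 and chr7:29915584-29915764, and none in a KO list, where its input had 11 and 6 counts. Zfp868 had 213, 58, 152 and 64 counts, with log2 ratios of -1.73 and -1.15. Unlike Zfp383 it had a 3′ untranslated peak in all 4 lists, at chr8:69611215-69611423 in both KO lists.

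On the other side, Zfp398 had 414, 1100, 360 and 941 counts in WT PA, KO PA, WT RO and KO RO, so that both KO libraries were high. The log2 ratio was 1.52 (1.36 to 1.69) in PA and 1.45 (1.28 to 1.64) in RO. It had coding peaks in every list, 2, 2, 1 and 2, and the peak at chr6:47866009-47866219 had the same first and last base in WT PA and KO PA. Zfp366, known as a corepressor of nuclear receptors and a marker of dendritic cells, had 28, 114, 33 and 111 counts and log2 ratios of 2.06 (1.54 to 2.79) and 1.76 (1.25 to 2.43). Its peaks appeared in the KO lists only, at chr13:99246222-99246732 in KO PA and with 2 peaks in KO RO, where its counts were higher.

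**Figure D4:**
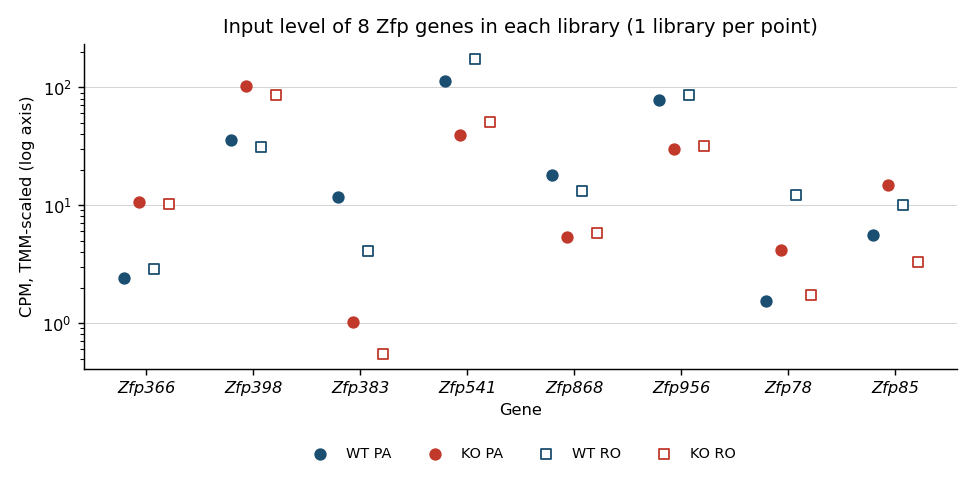
Input level (CPM, log axis) of 8 Zfp genes in each library, 1 point per library: filled circles PA, open squares RO, blue WT and red KO. For Zfp541 both red points (422 and 554 counts) lie below both blue ones (1319 and 2004), for Zfp398 above, and for Zfp78 and Zfp85 the order of the colours turns between PA and RO.

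The highest genotype ratios in PA alone belonged to Zfp819, Zfp87, Zfp366 and Zfp59 among genes with 10 CPM and a count in every library. Zfp819 had 9, 176, 106 and 261 counts, a log2 ratio of 4.12 (3.45 to 5.56) in PA and 1.36 (1.04 to 1.71) in RO. WT PA was the low library here, since WT RO stood 9.93-fold above it. Its coding peaks, 2 in each, were in the KO lists only. Zfp87 had 55, 324, 273 and 485 counts and the same shape, with log2 ratios of 2.63 and 0.90, but peaks in all 4 lists. Zfp59 had 103, 299, 129 and 130 counts, so that KO PA alone was high, and its only peak was in WT PA. In the authors' deposited table that peak had a log10 false discovery rate of -0.0195, so it was poorly supported. The lowest in PA were Zfp383, Zfp971 (305, 40, 111 and 73 counts, log2 ratio -2.76), Zfp868 and Zfp212 (462, 144, 507 and 217 counts, -1.55).

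In RO the highest were Zfp366, Zfp40, Zfp157 and Zfp398. Zfp40 had 152, 119, 34 and 111 counts, and its log2 ratio of 1.72 (1.21 to 2.38) came with a low WT RO library. Zfp157 had 216, 369, 132 and 363 counts, with log2 ratios of 0.88 in PA and 1.52 in RO. The lowest were Zfp78, Zfp865, Zfp541 and Zfp85. Zfp865 had 564, 320, 586 and 149 counts, log2 ratios of -0.70 and -1.89, and KO RO was its low library. Zfp78 had 18, 45, 141 and 19 counts, a log2 ratio of 1.34 (0.62 to 2.32) in PA and -2.70 (-3.59 to -2.12) in RO. Zfp85 had 66, 160, 116 and 36 counts, 1.37 (0.97 to 1.83) in PA and -1.57 (-2.20 to -1.07) in RO. In both genes the genotype order turned between the stages. The 5′ untranslated peak of Zfp85 shown above was absent only from the WT RO list, where the gene had 116 counts, and present in KO RO, where it had 36.

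Over the 201 genes with 10 CPM, the PA and RO genotype ratios, which share no library, had the same sign for 140 (69.7%), against 69.5% of all 13677 genes. Across these genes Pearson's r was 0.46 and Spearman's rho 0.48, and 0.52 and 0.53 across all genes. Genes are not independent replicates, and each axis comes from 1 pair of libraries. The Zfp genes were thus much like all genes in how far the pairs went together.

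**Figure D5:**
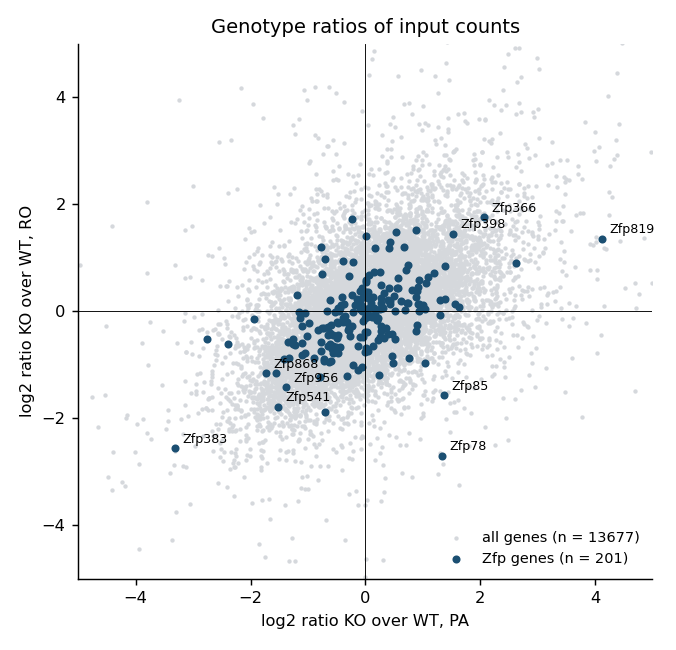
log2 ratio of KO over WT input levels in PA (x axis) and RO (y axis), 1 point per gene, for 13677 genes (grey) and 201 Zfp genes (blue); 45 genes lie outside the axes. Of the Zfp genes 140 have the same sign on both axes, Zfp383 lies far down on both, and Zfp78 and Zfp85 lie at the lower right.

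In the stage comparison, no Zfp gene had both RO libraries 2-fold above both PA libraries, against 0.877% of all genes; no p-value exists here for want of replicates, and with any gap 26 did (12.9% against 15.8%). For 2 genes both RO libraries were 2-fold lower, against 0.687% of all genes. Zfp964 had 111, 122, 29 and 47 counts in WT PA, KO PA, WT RO and KO RO, and Zfp846 had 291, 256, 129 and 123. With any gap, 52 of the 201 genes were lower in both RO libraries (25.9%), against 17.0% of all genes. Among genes with 10 CPM in either of the 2 libraries compared, which leaves out Zfp819 within WT, the highest stage ratios in WT were those of Zfp78 (log2 2.86) and Zfp87 (2.30) and the lowest those of Zfp40 (-2.07) and Zfp945 (-2.00). Within KO, under the same limit, the highest were Zfp710 (1.16) and Zfp422 (1.01) and the lowest Zfp85 (-2.11) and Zfp668 (-1.83).

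Presence of a peak was then set against the input ratio. In PA, 142 Zfp genes had a peak in both lists, and the 140 of them that reached 1 CPM had a median KO over WT log2 ratio of -0.03, the 39 with a peak in KO only 0.02 and the 20 with a peak in WT only -0.35. In RO the medians were -0.06 for 131 of 133 genes with a peak in both lists, 0.14 for 36 with a peak in KO only and -0.31 for 51 with a peak in WT only. Other genes gave -0.09, 0.07 and -0.28 in PA and -0.06, 0.09 and -0.25 in RO. In both stages, then, the genes with a peak in WT alone had lower KO input at the median, with wide ranges (-3.32 to 1.63 in PA and -4.32 to 3.75 in RO).

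By position, 65 of the placed genes lay on chromosome 7, 27 on chromosome 17 and 19 on chromosome 13 (mm10). Joined at gaps of up to 200 kb, 12 clusters of 4 or more held 79 of 235 placed genes. The largest, at chr7:29768552-30169775, held 13 genes and 47 peaks, with Zfp383 among them, and the log2 genotype ratios in PA ran from -3.32 to 1.11 over the 12 genes counted in both libraries, so that neighbours did not share a direction. The remaining gene, Zfp82, had no count in WT PA and 43 in KO PA. In the cluster at chr7:24081877-24316698 (Zfp180, Zfp109, Zfp108, Zfp61 and Zfp94) all 5 genes were lower in KO in PA, with a median log2 ratio of -0.81 and a range of -1.06 to -0.32 (-0.77 to -0.04 with total counts alone). In RO the same genes ran from -0.88 to 0.55. The 10 genes at chr13:67038594-67755202, which include Zfp85 and Zfp87, had 57 peaks. Over the 9 of them with 1 CPM, which leaves out Zfp708, the median log2 genotype ratio in PA was 0.67, with a range of -0.77 to 2.63. In RO the median was -0.12 and the range -1.57 to 0.90. The 4 genes at chr8:69610654-69774911 (Zfp868, Zfp964, Zfp869 and Zfp866) were all lower in RO than PA in WT, from -1.84 to -0.45. In KO their log2 ratios of RO over PA ran from -1.36 to 0.12. Of all genes with 1 CPM, 51.4% had a genotype ratio above 0 in PA. For RO over PA in WT it was 50.3%. The clusters described here were picked from the 12 after their values were seen.

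KRAB zinc finger proteins act through a silencing machinery, of which 18 genes were listed and 11 could be named: Setdb1, Cbx1, Atf7ip, Mphosph8, Fam208a, Morc2a, Chd3, Chd4, Hdac1, Dnmt1 and Smarcad1. Trim28, the central corepressor, has no symbol in the files. Of the 11, 5 had a peak in all 4 lists. The median log2 ratio of KO over WT for the 11 was -0.57 in PA and -0.21 in RO. In PA 1 of the 11 passed 2-fold, against 43.7% of all genes with 1 CPM (19.9% lower). This was Cbx1, which codes an HP1 protein, with 1416, 622, 774 and 487 counts in WT PA, KO PA, WT RO and KO RO (log2 -1.07 in PA). In RO no gene of the list passed 2-fold, against 42.1% of all genes. These backgrounds include many genes of low count, while each of the 11 had at least 44 CPM in every library. At 10 CPM, 26.4% of all genes passed 2-fold in PA and 24.6% in RO. Of genes with a peak, 22.4% and 22.1% did. With total counts alone the medians were -0.28 in PA and -0.03 in RO and no gene of the list passed 2-fold in either. Fam208a and Mphosph8, subunits of the HUSH silencing complex, were lower in both KO libraries but within 2-fold: Fam208a had 8779, 5175, 8169 and 4766 counts and Mphosph8 6322, 3028, 5576 and 3061. Setdb1 had 2003, 1111, 1552 and 1244 counts.

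A further list held 6 zinc finger genes with other names, 5 of which could be named: Zfy1, Zfy2, Zfx, Gli3 and Prdm9. All 5 were more than 2-fold higher in KO than WT in RO, with log2 ratios from 1.19 to 2.22 (1.36 to 2.40 with total counts alone), and 2 of them in PA, Zfy1 and Gli3. Of all genes 23.0% were 2-fold higher in RO and 23.8% in PA. Zfy1 and Zfy2, on the Y chromosome, act in meiosis: Zfy1 had 67, 267, 113 and 312 counts in WT PA, KO PA, WT RO and KO RO, and Zfy2 172, 236, 188 and 499. Zfx, their X-linked relative, had 310, 535, 114 and 412. Prdm9, the factor that places meiotic recombination sites, had 272, 234, 148 and 323, so that WT RO was its low library. The lists of these genes were drawn up with earlier results of the data known.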

How the data were processed

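Cells from mouse testes were profiled by MeRIP-seq in 8 samples, 1 library per group. The authors deposited whole-number gene counts of the 4 input libraries and 4 peak lists. Per the submitters' processing notes cutadapt 2.5, HISAT2 2.1.0, HOMER 4.10.4 and build mm10 were used; their roles, the counting tool and its handling of strand and of reads shared between genes are not given in the sources used here, so counts of near-identical or overlapping genes are uncertain. The deposited peaks carry, per the file headers, a p-value, log10 p and log10 false discovery rate, and a fold (ratio of immunoprecipitated to input signal); the deposited score column holds the p-value, and the fold is the authors' own and was used within a list only. Each list was assigned by its name.

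Members were found by symbol (Zfp and digits) and joined to counts by Ensembl identifier; the members and lists were chosen with earlier results of these data known. TMM factors (edgeR 4.0.16, R 4.3.3) scaled the counts, which became log2 CPM with a prior count of 2. Genes with 1 CPM in either library were kept, 236 of 238 members (235 for RO over PA in WT) and 201 at 10 CPM; called means 2-fold. Intervals of 95% are exact binomial for a ratio and Wilson for a share, and cover counting error only. Replicates are lacking, so no test was made.

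Peaks were shared at an overlap of at least 1 exonic base on the same strand. The design called for the last coding exon, but no exon annotation was used here; the distance to the end of the gene in the RefSeq table (GRCm38.p6, the same build) took its place, chosen after seeing the files, as were the scaling alternatives for genes apart in both stages. Of 238 members 236 were placed by symbol. Proteins were not analysed here.

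Named were the 6 genes with the most peaks, the 3 Zfp peaks of highest fold per list, the 4 highest and 4 lowest genotype ratios per stage and the 2 highest and 2 lowest stage ratios per genotype (10 CPM in either library compared and a count in all libraries), genes apart in both stages, and the 5 most abundant of those in 4 lists. Zfp612, Zfp964, Zfp846, Zfp708, Zfp935, Zfp644, Zfp82, Zfp329 and the clusters were named after their values were seen. Alternatives were DESeq2 1.42.0 size factors, total counts, other filters and a prior of 0.5. The scripts, in Python 3.11.15, were checked on simulated data.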

Additional observations from a re-analysis of the deposited data

Results flagged for a closer look

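The KO to WT ratio of Zfp peak numbers lay on opposite sides of 1 in the stages, at 1.15 in PA (0.982 to 1.35) and 0.863 in RO (0.741 to 1.005). Limited to a false discovery rate under 0.05, the ratios were 1.20 (1.02 to 1.41) and 0.960 (0.818 to 1.13). For all other genes the ratios without that limit were 1.33 in PA and 0.942 in RO, also on opposite sides of 1. The difference between the stages was not tested.

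For Zfp78 the genotype ratio of input counts had opposite signs, with a log2 ratio of 1.34 in PA (18 counts in WT, 45 in KO) and -2.70 in RO (141 and 19). WT RO was the high library, with 12.2 CPM against 1.53 to 4.16 in the other 3. For Zfp85 the log2 ratio was 1.37 in PA (66 and 160 counts) and -1.57 in RO (116 and 36). KO PA and WT RO were the high libraries of Zfp85. With 1 library per group neither difference could be tested.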

How the results depend on the processing

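No paired analysis was possible because each group has 1 library, and for the same reason no replicate could be left out. Settings for the last coding exon were not run; the distance limit stood in. For WT PA, KO PA, WT RO and KO RO the share of Zfp coding peaks near the 3′ end was 15.6%, 13.04%, 16.0% and 10.8% with a limit of 2 kb, and 73.2%, 72.2%, 74.8% and 69.0% with 10 kb. The share of WT peaks with a KO counterpart was 60.7% in PA and 40.9% in RO when 50% of both peaks had to overlap, and 92.3% and 82.0% when any peak in the gene counted. It was 63.0% in RO at a false discovery rate under 0.05. With total counts only, the median log2 ratio of KO over WT became 0.24 in PA and 0.11 in RO, and 5 genes were higher and 2 lower in both KO libraries. Under that scaling the RO log2 ratios of Zfp638 (0.00823) and Zfp646 (0.00246) turned positive. With a minimum of 10 CPM, 24 of 183 Zfp genes (13.1%) passed 2-fold in RO, against 24.6% of all genes. For RO over PA in KO it was 14 of 186 (7.53%), against 10.9% of all genes. Over all other settings, 71 values of these main results and 397 ratios of named genes stayed within the limits set around the main value. Beyond those limits lay 19 values of the main results and 45 ratios of named genes, the ratios all with total counts. For log2 ratios, a change of sign counted as a reversal only where the interval of the main value had a single sign. One library per group and counts as low as 6 limit the ratios of genes such as Zfp383.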

Other observations

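Zfp708 and 1 of the identifiers of Zfp935 had 0 counts in all 4 input libraries and a peak in all 4 lists. Peaks of both genes overlapped a peak of another identifier in each list. In all, 5, 6, 6 and 5 Zfp peaks of WT PA, KO PA, WT RO and KO RO overlapped a peak of another gene on the same strand. Zfp82 had 0 counts in both WT libraries and 43 and 14 in KO PA and KO RO. Against a floor of 3 counts it was at least 15.5-fold higher in KO PA and at least 4.91-fold higher in KO RO, and its peaks also overlapped those of another gene in KO PA.

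Zfp644 was the third of the members by summed input level, with 287, 472, 301 and 333 CPM in WT PA, KO PA, WT RO and KO RO, and had a peak in the WT RO list alone. Zfp451 and Zfp654, which came after it, had peaks in all 4 lists.

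Coding shares of other families named for finger domains were set beside that of the Zfp genes, with no test of a difference. Zbtb genes, whose proteins join a BTB domain to zinc fingers and include regulators of germ line stem cells, numbered 35 with 262 peaks, of which 72.5% were coding (66.8% to 77.6%), and 27 of them had peaks in all 4 lists. Zscan genes, with a SCAN domain, numbered 10 with 65 peaks, 78.5% coding (67.0% to 86.7%). Zkscan genes numbered 9 with 68 peaks, 60.3% coding (48.4% to 71.1%). Rnf genes, of RING finger proteins that are mostly ubiquitin ligases and do not bind DNA with fingers, numbered 46 with 211 peaks, 61.6% coding (54.9% to 67.9%). Zc3h genes, of RNA-binding fingers, numbered 13 with 85 peaks, 69.4% coding (59.0% to 78.2%). Zfyve genes, of FYVE fingers that bind membrane lipids, numbered 6 with 38 peaks, 86.8% coding (72.7% to 94.2%). The Zfp genes had 67.1% over all lists (64.6% to 69.6%), a value inside the interval of each of these families but Zfyve. Of the Zfp genes 48.3% had peaks in all 4 lists, the lowest share of the 7 families, which otherwise ran from 50% (Rnf and Zfyve) to 77.1% (Zbtb).

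Of the Zfp peaks, the median fold in the authors' deposited table was 14.2, 13.5, 17.5 and 14.6 for WT PA, KO PA, WT RO and KO RO, against 11.6, 12.9, 14.8 and 11.9 for the peaks of other genes in the same list. Zfp peaks without a counterpart in the other genotype had a lower median fold than those with one: 10.5, 9.78, 13.5 and 8.35 in the same order, against 15.1, 19.0, 22.9 and 17.9. The same held for peaks of other genes, with 9.49, 9.4, 12.1 and 9.16 against 12.95, 18.8, 21.5 and 15.55.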
